A study of Homo sapiens with 2 samples.

Results

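The 55 genes described here carry a cell through mitosis: they drive mitotic entry, build the spindle, hold chromosomes to it and divide the cell. They were taken by name from a list, as every gene whose gene probes (control spots left out) bore one of these symbols on both arrays. All 55 were on the arrays, which carried probes for 27267 genes. A gene was measured when, in ALDH+ or in ALDH- cells, a probe stood well above background on each array, which held for 54 of the 55 and for 13720 genes in all. For all 54 the probe used was well above background in both populations, so that none was counted only through the population in which it was higher. NCAPH, a condensin subunit, had no measured probe.

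RNA came from RMG1, an established line of ovarian clear cell adenocarcinoma, whose cells were sorted by the ALDEFLUOR assay, with no treatment named in the labels. In this assay a fluorescent substrate is retained by cells with aldehyde dehydrogenase (ALDH) activity, and a parallel stain with the ALDH inhibitor DEAB sets the background. Cells positive in the assay are called ALDH+ cells and cells negative in it ALDH- cells. The study used such sorts to compare candidate cancer stem-like cells with the rest of the line. There was 1 RNA extract of each population, and both extracts were hybridized together to each of 2 arrays of 60-base probes, with ALDH+ cells in Cy5 on array 1 and in Cy3 on array 2. The arrays therefore repeat 1 comparison in both dye orders, their spread is technical, and no test or p-value is possible. Values are log2 ratios of ALDH+ over ALDH- cells, and an SD is that of the 2 arrays.

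As background, genes of mitosis are transcribed in a wave that begins late in S phase and peaks as cells enter mitosis. Their products are then destroyed, many of them by a ubiquitin ligase, the anaphase-promoting complex (APC/C), which lets sister chromatids part and the cell leave mitosis. Many of their promoters hold a cell cycle genes homology region (CHR) near the start of transcription, bound by the DREAM and B-MYB-FOXM1 complexes, and CCAAT boxes bound by NF-Y. In bulk RNA, more cells at the stage that carries a transcript and more RNA per cell cannot be told apart.

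Across the 54 measured genes the median log2 ratio was 0.30, from 0.27 on array 1 and 0.33 on array 2. The median of all 13720 measured genes was -0.0023. A ratio above 0 on both arrays was found for 44 of the 54 genes, against 33.7% of all genes, and below 0 on both for 1 gene, against 36.1% of all genes. The arrays lay on opposite sides of 0 for the other 9. A mean past 1.2-fold higher with both arrays above 0 was found for 29 of the 54, against 11.5% of all genes. None was past 1.2-fold lower, against 18.1% of all genes. The differences were small: 2 genes were past 1.5-fold higher, where 1.51% of all genes lay, and none was past 2-fold. The SD of the arrays had a median of 0.11 over these genes and reached 0.31, for AURKB. The counts rest on the correction of dye bias by intensity within each array: with each array only centred on its median, array 1 gave the genes a median of 0.99 and array 2 one of -0.18, and 9 of the 54 lay above 0 on both arrays and 0 below, where 8.29% of all genes lay above and 9.02% below. The mean of the dye orders kept its sign there, with a median of 0.39 over the 54 genes against 0.073 over all measured genes.

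**Figure D1:**
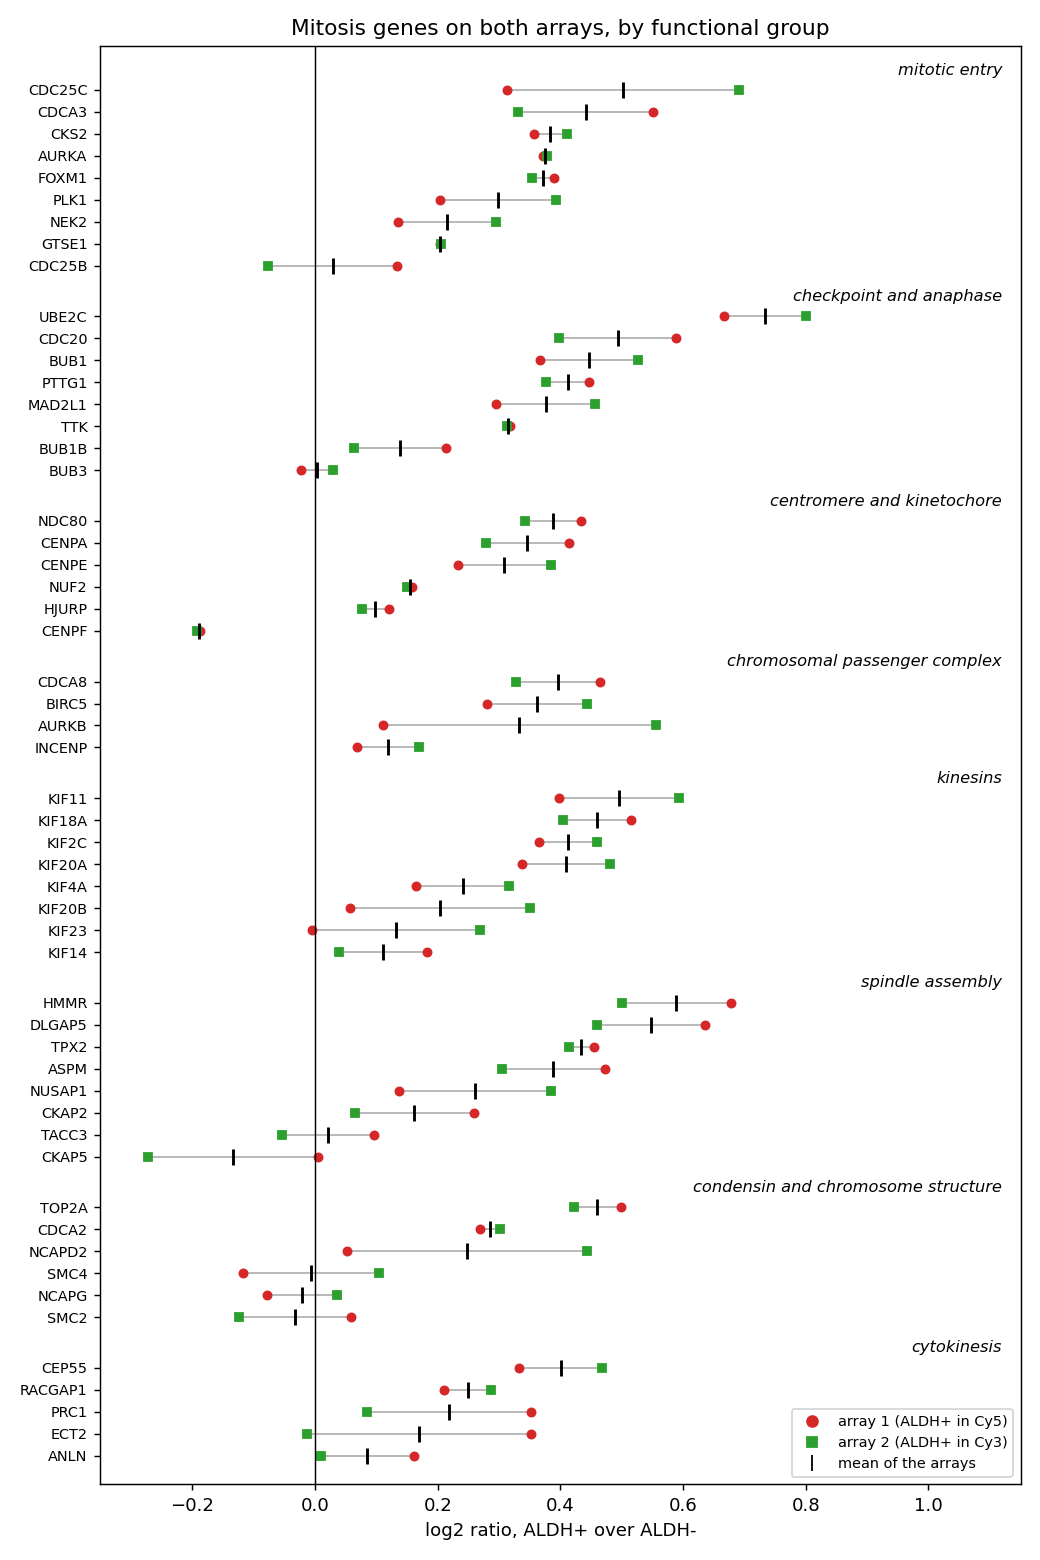
Log2 ratio of ALDH+ over ALDH- cells (x axis) for each of the 54 measured mitosis genes, grouped by function, on array 1 (circles), array 2 (squares) and as their mean (bars). Most pairs lie to the right of 0 in every group except the condensin and chromosome structure genes, of which 3 of 6 do, and CENPF alone lies to the left on both arrays.

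**Figure D2:**
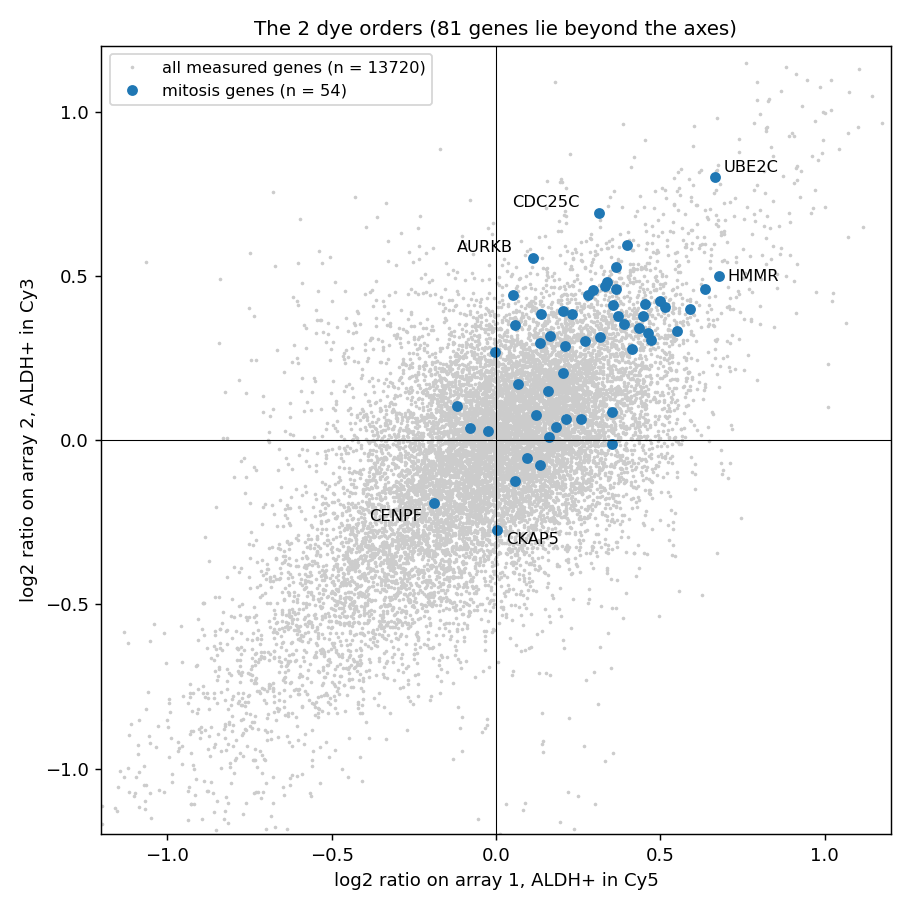
Log2 ratio on array 1 (x axis) against array 2 (y axis) for the 54 mitosis genes (blue) over all 13720 measured genes (grey), of which 81 lie beyond the axes. The mitosis genes sit mostly above and to the right of the 0 lines, where both dye orders give higher signal in ALDH+ cells.

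Mitotic entry is set off by CDK1 and cyclin B, and the genes listed under it include regulators of that switch and other kinases and factors of G2 and early mitosis. All 9 had a mean above 0, as had 6808 of all 13720 measured genes. Of the 9, 8 were higher on both arrays, against 33.7% of all genes, and the counts of the groups below stand against the same share. The group median was 0.37 (0.31 on array 1 and 0.35 on array 2). CDC25C, a phosphatase that activates CDK1, gave normalized signals of 178 in ALDH+ and 143 in ALDH- cells on array 1 and 192 and 119 on array 2. Its log2 ratios of 0.31 and 0.69 made it the highest of the group at 0.50, but its signal was dim and its arrays were far apart (SD 0.27). CDC25B, a phosphatase of the same family, was the lowest at 0.03, with 0.13 on array 1 and -0.08 on array 2. Between them, CDCA3, which helps to remove the CDK1 inhibitor WEE1, was at 0.44. The CDK-binding subunit CKS2 was at 0.38, the centrosomal kinase AURKA at 0.37 on both arrays alike (0.37 and 0.38) and FOXM1, a transcription factor that activates many mitotic genes, at 0.37. The kinase PLK1 was at 0.30, and a second PLK1 probe, not well above background in both populations, gave 0.11. The centrosomal kinase NEK2 was at 0.21 and GTSE1, a microtubule-binding protein of G2 cells, at 0.20. Each of these 7 was above 0 on both arrays.

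Genes of spindle assembly ran from -0.13 to 0.59 with a median of 0.32 (0.36 and 0.35 on the arrays), and 6 of the 8 were higher on both arrays. HMMR encodes a protein that helps to place TPX2 at spindle poles. Its probe, at chr5:162918837-162918896 (hg19), gave 2012 in ALDH+ and 1258 in ALDH- cells on array 1 and 1879 and 1328 on array 2. Both dye orders thus gave more signal in ALDH+ cells, at log2 ratios of 0.68 and 0.50 and a mean of 0.59 (SD 0.13), just past the 1.5-fold line. DLGAP5, which stabilizes kinetochore fibers, lay just short of it at 0.55 (0.64 and 0.46). The microtubule nucleation factor TPX2 was at 0.43, the spindle pole protein ASPM at 0.39 and the microtubule bundler NUSAP1 at 0.26. A second, dimmer ASPM probe gave 0.38. At the other end, CKAP5, a microtubule polymerase, had signals of 867 and 865 on array 1 and 783 and 947 on array 2, so that only the second array placed it lower in ALDH+ cells (0.00 and -0.27, mean -0.13, SD 0.20). Its partner TACC3 was at 0.02, with the arrays on opposite sides of 0. The microtubule-associated gene CKAP2 was at 0.16 by the probe used and at -0.02 by another. Another probe that carried the name CKAP2 lay on another chromosome (chr9:37922980-37923039, hg19) and was not measured.

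Kinesins are motors that move along microtubules, and 7 of the 8 listed here were higher on both arrays, with a median of 0.32 (0.26 and 0.38). KIF11, the motor that pushes spindle poles apart, gave 844 in ALDH+ and 640 in ALDH- cells on array 1 and 856 and 567 on array 2. It was the highest at 0.50 (0.40 and 0.59). The plus-end motor KIF18A was at 0.46, the microtubule depolymerase KIF2C at 0.41 and KIF20A, a motor of the central spindle, at 0.41. In all 4 of these genes the ALDH+ signal was above the ALDH- signal in both dye orders. The chromokinesin KIF4A was at 0.24 with a second, dimmer probe at -0.01. KIF20B was at 0.20, and a second, dimmer KIF20B probe, not well above background in both populations, gave 0.32. The cytokinetic motors KIF23 and KIF14 were lowest at 0.13 and 0.11, and for KIF23 array 1 gave -0.0043. A second, dimmer KIF23 probe was above 0 on both arrays (0.23 and 0.08).

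The centromere and kinetochore genes held the single member that was lower on both arrays. CENPF, a large protein of the outer kinetochore, gave 2339 in ALDH+ and 2663 in ALDH- cells on array 1 and 2542 and 2904 on array 2. Its ratio was -0.19 on each array (SD 0.0033). A second, much dimmer CENPF probe gave -0.19 and -0.17, from signals of 164 and 187 on array 1 and 169 and 191 on array 2. The probes lie at chr1:214837308-214837367 and chr1:214826239-214826298 (hg19). The remaining 5 genes of the group were higher on both arrays, and the group median was 0.23 (0.20 and 0.21). NDC80, which binds microtubules at the kinetochore, was at 0.39. CENPA, the histone H3 variant that marks the centromere, was at 0.35 and the kinetochore motor CENPE at 0.31. NUF2, the partner of NDC80 in the same complex, was lower than it at 0.15 (0.16 and 0.15), and HJURP, the chaperone that places CENPA, was at 0.10. No test of differences among members was possible.

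Checkpoint and anaphase genes had a median of 0.39 (0.34 and 0.39), the highest of the 8 groups in the mean of the arrays, although spindle assembly was above it on array 1 (0.36) and the chromosomal passenger complex close to it on array 2 (0.38). In this group 7 of the 8 genes were higher on both arrays. UBE2C, the ubiquitin-conjugating enzyme that works with the APC/C, led all 54 genes. Its probe, at chr20:44445525-44445584 (hg19), gave 4031 in ALDH+ and 2540 in ALDH- cells on array 1 and 4060 and 2332 on array 2. The log2 ratios were 0.67 and 0.80, a mean fold of 1.66 (SD 0.09 on the log2 scale), at rank 93 among all measured genes. CDC20, which activates the APC/C, gave 982 and 653 on array 1 and 842 and 639 on array 2, for a mean of 0.49. The checkpoint kinase BUB1 was at 0.45, securin (PTTG1), which holds separase inactive, at 0.41 and the checkpoint protein MAD2L1 at 0.38. The kinase TTK, which starts checkpoint signaling, was at 0.32 on both arrays nearly alike (0.32 and 0.31). The checkpoint protein BUB1B was at 0.14 (0.21 and 0.06). BUB3, its partner, was at 0.00 by the brighter probe, with signals of 1824 and 1854 on array 1 and 1839 and 1802 on array 2. A second BUB3 probe, designed on another transcript of the gene, gave 967 and 646 on array 1 and 891 and 701 on array 2, a mean of 0.46. The 2 probes of BUB3 thus differed by 0.46, the widest gap of the 12 members with more than 1 measured probe.

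The chromosomal passenger complex corrects faulty attachments and later guides cytokinesis, and all 4 of its subunits were higher on both arrays. CDCA8, also called borealin, was the highest at 0.40 (0.46 and 0.33), followed by BIRC5, or survivin, at 0.36 (0.28 and 0.44). The kinase of the complex, AURKB, was at 0.33. Its signal was dim, at 221 in ALDH+ and 205 in ALDH- cells on array 1 and 231 and 157 on array 2. The size of its ratio depended on the array (0.11 and 0.56). The scaffold INCENP was the lowest at 0.12 (0.07 and 0.17). The group median of 0.35 was 0.20 on array 1 and 0.38 on array 2.

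Condensin and chromosome structure genes had a median of 0.12 (0.06 and 0.20), the lowest group in the mean of the arrays and on array 1 but not on array 2, where cytokinesis was at 0.08, and 3 of the 6 measured genes were higher on both arrays. TOP2A, the topoisomerase that untangles sister chromatids, gave 963 in ALDH+ and 682 in ALDH- cells on array 1 and 873 and 651 on array 2, for a mean of 0.46. CDCA2, which brings a phosphatase to chromosomes as mitosis ends, was at 0.29. Of the condensin subunits, NCAPD2 was at 0.25, with 0.05 on array 1 and 0.44 on array 2. A second, dimmer NCAPD2 probe gave 0.30 and 0.21. The subunits SMC4, NCAPG and SMC2 were at -0.01, -0.02 and -0.03, each with its arrays on opposite sides of 0, and a second, dimmer SMC4 probe was higher on both arrays (0.12 and 0.23, mean 0.18). By the brighter SMC4 probe and the probes of NCAPG and SMC2, neither direction held in both dye orders. The NCAPG signal was dim, at 142 in ALDH+ and 150 in ALDH- cells on array 1 and 148 and 145 on array 2. The probe of NCAPH, not well above background, gave 0.12 and -0.09.

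Cytokinesis genes had a median of 0.22, which was 0.33 on array 1 and 0.08 on array 2, and 4 of the 5 were higher on both arrays. CEP55, which recruits the abscission machinery to the midbody, was the highest at 0.40 (0.33 and 0.47) by a probe with 10 spots. A second, dimmer CEP55 probe gave -0.04 (0.04 and -0.11), so that the higher value is that of 1 probe. RACGAP1, the GTPase-activating subunit of centralspindlin, was at 0.25 and PRC1, which bundles microtubules of the central spindle, at 0.22. The exchange factor ECT2, which activates RhoA, was at 0.17 with the arrays at 0.35 and -0.01, and anillin (ANLN) was the lowest at 0.09.

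The probes read short stretches of these transcripts. For 6 members the 60 bases of the probe span a longer stretch of the hg19 genome. A crossed intron, and so a match to spliced RNA, was inferred from this span alone for these probes. They are those of BUB1, CDCA3, KIF20A, AURKB, PLK1 and TACC3. The stretches of 2 genes that were higher on both arrays and of TACC3, which was not, are printed here whole, in lower case because no part of them is singled out.
BUB1 probe (chr2:111395699-111397340, hg19, minus strand): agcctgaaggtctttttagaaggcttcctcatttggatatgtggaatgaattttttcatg
KIF20A probe (chr5:137522081-137522804, hg19, plus strand): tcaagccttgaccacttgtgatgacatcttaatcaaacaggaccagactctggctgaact
TACC3 probe (chr4:1741478-1741717, hg19, plus strand): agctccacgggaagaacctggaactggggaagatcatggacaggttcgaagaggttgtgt
The mean log2 ratios of these 3 probes were 0.45 for BUB1, 0.41 for KIF20A and 0.02 for TACC3. For 6 members a probe was spotted 10 times on each array, and the SD over those spots lay between 0.03 and 0.10.

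Promoters were searched for the letters TTTGAA and TTTAAA, the core of the CHR, and for CCAAT, each on both strands and allowing overlap, in 250 bases before to 50 after each start of transcription in RefSeq (GRCh38.p14). Of the 55 genes, 46 had an entry and 39 had exactly 1. Those with none were AURKA, BIRC5, BUB3, CDCA2, FOXM1, RACGAP1, TPX2, TTK and UBE2C. A CHR core was present in 35 of these 39 promoters (89.7%), against 15.1% of the 6822 measured genes with 1 entry and 24.0% of all 35116 promoters of that length. CCAAT was present in 30 of the 39 (76.9%), against 38.1% and 34.6%. Both were present in 28 (71.8%), against 6.55% and 9.27%. The members thus held these letters more often than other promoters, which is a description of the list and not of the arrays. Members with CCAAT had a median log2 ratio of 0.35 (29 measured genes) and those without it 0.15 (9 genes). With a CHR core the median was 0.30 (34 genes) and without it 0.19 (4 genes). Among all measured genes with 1 entry the medians were 0.01 with CCAAT and -0.01 without. For the further mitosis genes described below they were 0.09 with CCAAT (37 genes) and -0.02 without (24 genes). With a CHR core those further genes were at 0.09 (28 genes) and without it at 0.065 (33 genes). For the S phase list described below the medians were -0.11 with CCAAT (17 genes) and -0.15 without (15 genes). These differences were not tested. Among members with exactly 1 entry, the bases before the start are printed for the highest of each functional group that holds both elements within 120 bases. Members with no entry or with several were not eligible. CENPF, which holds both elements too and was lower on both arrays, is printed as well. Capitals mark every CHR core and CCAAT on either strand.
HMMR (chr5:163460512-163460631, GRCh38.p14, plus strand): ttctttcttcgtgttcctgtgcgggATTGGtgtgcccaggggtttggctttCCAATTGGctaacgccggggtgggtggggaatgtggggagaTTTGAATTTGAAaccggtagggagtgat
KIF11 (chr10:92593010-92593129, GRCh38.p14, plus strand): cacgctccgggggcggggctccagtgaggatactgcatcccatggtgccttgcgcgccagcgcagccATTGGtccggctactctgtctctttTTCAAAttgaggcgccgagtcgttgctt
CDC20 (chr1:43358861-43358980, GRCh38.p14, plus strand): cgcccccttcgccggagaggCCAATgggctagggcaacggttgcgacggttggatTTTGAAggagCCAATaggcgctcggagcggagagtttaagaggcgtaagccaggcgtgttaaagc
CEP55 (chr10:93496492-93496611, GRCh38.p14, plus strand): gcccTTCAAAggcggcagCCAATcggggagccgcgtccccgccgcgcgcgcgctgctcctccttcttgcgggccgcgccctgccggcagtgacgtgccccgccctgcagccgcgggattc
CDCA8 (chr1:37692396-37692515, GRCh38.p14, plus strand): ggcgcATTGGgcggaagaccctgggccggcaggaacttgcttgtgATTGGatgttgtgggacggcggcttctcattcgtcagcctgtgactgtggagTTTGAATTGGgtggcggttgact
CKS2 (chr9:89311075-89311194, GRCh38.p14, plus strand): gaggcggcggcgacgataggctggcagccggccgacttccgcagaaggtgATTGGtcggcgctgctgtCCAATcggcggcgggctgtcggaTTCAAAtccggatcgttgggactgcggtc
HJURP (chr2:233854536-233854655, GRCh38.p14, minus strand): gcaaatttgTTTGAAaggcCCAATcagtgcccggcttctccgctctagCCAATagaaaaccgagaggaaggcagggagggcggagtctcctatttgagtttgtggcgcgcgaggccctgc
CENPF (chr1:214603075-214603194, GRCh38.p14, plus strand): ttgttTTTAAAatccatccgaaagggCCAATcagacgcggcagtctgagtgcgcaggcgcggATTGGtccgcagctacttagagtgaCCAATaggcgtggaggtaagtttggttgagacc
No condensin or chromosome structure gene with 1 entry held both elements in these 120 bases. HMMR holds 2 CHR cores that adjoin each other and CENPF holds 1, while both have 3 CCAAT letters in the stretch shown. A match is a run of letters and not evidence that a factor was bound.

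**Figure D3:**
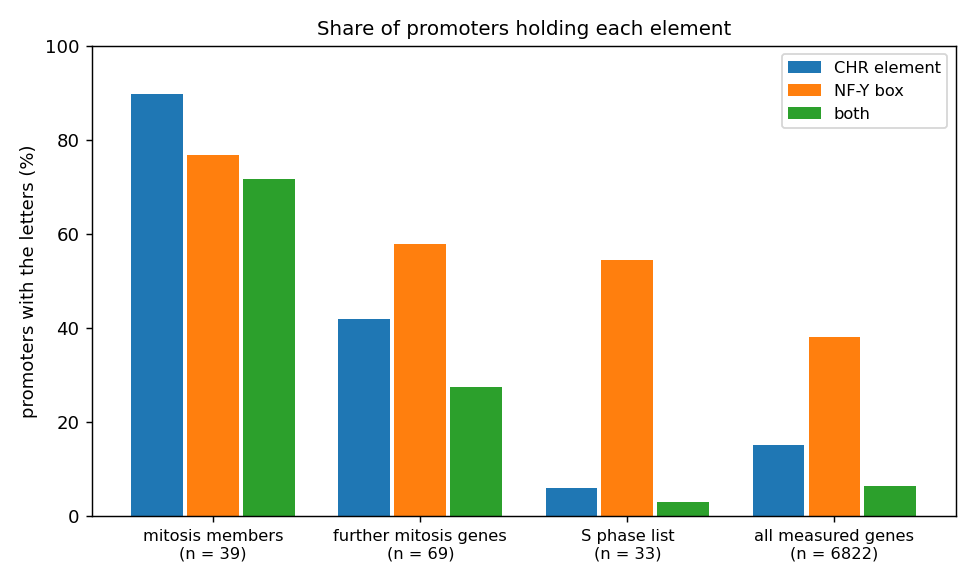
Percentage of promoters (y axis) holding a CHR core, a CCAAT run recognized by NF-Y, or both, for genes with 1 promoter entry in RefSeq: 39 mitosis genes, 69 further mitosis genes, 33 genes of an S phase list and 6822 measured genes. The CHR bar falls from 89.7% in the mitosis genes to 42.0% in the further mitosis genes, 6.06% in the S phase list and 15.1% in all measured genes.

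Further genes of mitosis, written by function as 5 lists of 104 genes in all, lay closer to the median of all genes. Their median was 0.065 over 95 measured genes, with 43 higher and 27 lower on both arrays. Of all measured genes, 33.7% were higher and 36.1% lower on both arrays, and the counts of each list below stand against these shares. Highest among them were CKAP2L and PSRC1, both spindle proteins, at 0.49 and 0.49, and cyclin B2 (CCNB2) at 0.46. CKAP2L rested mostly on array 2 (0.20 and 0.79). Lowest were SMC1A, a core subunit of cohesin, at -0.61, CLASP2, which stabilizes microtubules, at -0.47 and DEPDC1B at -0.40. On the list of the CDK1 and cyclin B axis the median was 0.078, and 5 of 10 genes were higher and 1 lower on both arrays. CDK1 was at 0.35 with its arrays far apart (0.14 and 0.55), and CCNB1 and CCNA2 were at 0.38 and 0.38. The CDK1-inhibiting kinases WEE1 and PKMYT1 were at 0.02 and -0.04, MASTL, a kinase that restrains the phosphatase PP2A, at -0.14 and lamin B1 (LMNB1) at -0.01. The 1 gene lower on both arrays was MKI67, a marker of proliferating cells, at -0.20 (-0.07 and -0.34). In the outer kinetochore and the constitutive centromere network, 15 of 29 were higher and 3 lower on both arrays, with CENPH at 0.36 and CENPP at -0.33. The list of APC/C subunits and regulators had a median of -0.0071, with 0.033 on array 1 and 0.10 on array 2, and 8 of 17 genes higher and 7 lower on both arrays. Among the 8 were the regulators FBXO5, an inhibitor of the APC/C, at 0.27 and UBE2S, a ubiquitin-conjugating enzyme that works with it, at 0.20. Of the further kinesin, spindle and centrosome genes, 11 of 25 were higher and 9 lower on both arrays, with a median of 0.080.

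Cohesin holds sister chromatids together until anaphase. With condensin II and separase it formed a list of 14 measured genes with a median of -0.08. Of these, 4 were higher and 7 lower on both arrays, against 33.7% and 36.1% of all genes. SMC3, the partner of SMC1A, was at -0.33, the release factor WAPL at -0.34, PDS5A at -0.29 and STAG2 at -0.27, all lower on both arrays. Separase (ESPL1) was at 0.22. For comparison, 51 genes of DNA replication and the G1/S transition had a median of -0.17 over 50 measured genes. Of these, 9 were higher and 30 lower on both arrays, against the same shares of 33.7% and 36.1%. Lists were not tested against each other, since 1 extract of each population allows none.

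**Figure D4:**
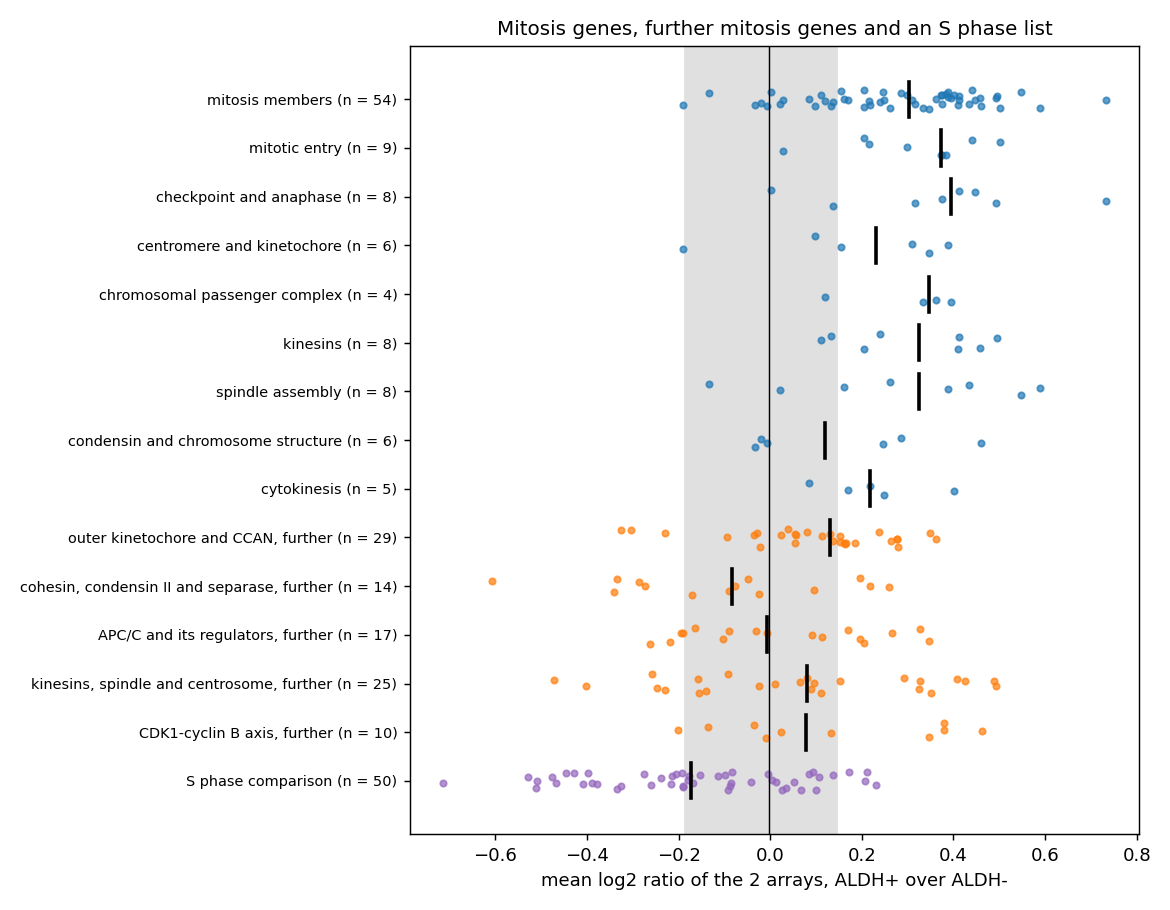
Mean log2 ratio of the 2 arrays (x axis) for the mitosis genes and their 8 functional groups (blue), 5 lists of further mitosis genes (orange) and an S phase list (purple), 1 point per measured gene, with a black bar at each median. The grey band is the interquartile range of all 13720 measured genes and the thin line their median; the mitosis genes have a median of 0.30 and the S phase list one of -0.17.

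Several measured properties were set beside the ratios. Across the 54 genes the ratios of the arrays correlated with Pearson's r = 0.62 and Spearman's rho = 0.58, against 0.69 and 0.59 across all 13720 genes; genes are not independent replicates and share the extracts. Spearman's rho of the ratio with gene length was weak, at -0.24 over the 54 genes and -0.16 over 11812 genes with a length. In bins of short, middle and long genes, equal in number, all genes had medians of 0.037, -0.0054 and -0.063. In those bins 11 short mitosis genes had a median of 0.38, 26 of middle length 0.23 and 17 long ones 0.24. Each was above the median of all genes in its bin, and the median of the mitosis genes did not fall from middle to long. The share of G and C in the probe gave rho = 0.10 over the members and 0.12 over all genes. The part of length and base composition in the ratios was not tested.

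The label was checked against markers. All 8 epithelial markers were measured, from KRT7 at -0.30 to MUC1 at 0.30. Of the clear cell carcinoma markers, PAX8 was lower in ALDH+ cells at -0.74 and NAPSA was at -0.16. No fibroblast marker of 7 was measured, 1 of 4 endothelial markers was (CDH5, 0.19), and 4 of 10 leukocyte markers were. CD14 was at 0.45 and above 0 on both arrays. PTPRC at 0.04, CD68 at -0.08 and CD3D at -0.15 each had arrays on opposite sides of 0. The part of these markers in the results for the mitosis genes was not tested.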

How the data were processed

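Extracts of ALDH+ and ALDH- RMG1 cells were compared on 2 two-color arrays of opposite dye order, counted as 1 replicate because both carried the same extracts. The labels name RMG1, whereas the methods name AMOC2. For each array the authors deposited spot intensity and local background, per the file headers from Feature Extraction 10.7.3.1 (the submitters' processing notes name 8.5.1.1). They also deposited the software's log10 ratio, which another deposited table joins for both arrays. Of that table, 4 signal columns were not used.

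Ratios on the log2 scale came from normexp (offset 50) and loess within each array (R 4.3.3, limma 3.58.1), without control and outlier spots (531 and 519 gene probe spots), and turned to ALDH+ over ALDH-. Signals printed for a population were then scaled between the arrays by average intensity (Aquantile), which left the ratios unchanged. These signals include the offset of 50. Before background correction, negative control spots on arrays 1 and 2 had median intensities of 135 and 127 in Cy3 and 45 and 43 in Cy5. A probe counted as measured when, in at least 1 population, over 50% of its spots on each array were well above background, and the brightest probe stood for a gene. No gene spot was saturated (0 on each array). Of 34127 probes, 25422 were named through their RefSeq accession. Lists, counts and figures were made in Python 3.11.15 with numpy 2.4.6, pandas 2.3.3 and matplotlib 3.10.9. Only the background correction and the loess step were tested on simulated data.

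Members and lists were chosen with earlier results of these data known. Named genes were the highest and lowest of each functional group, those past 1.5-fold, those lower on both arrays, those whose probes differed in sign or were not measured, and the 3 highest and 3 lowest further genes; the other genes named were chosen after their values were seen. One marker gene is not reported here. Alternatives were other background corrections, median centring, the software's ratio, other filters, other probe rules, each array alone and other fold thresholds. With 1 sort of each population, differences between sorts cannot be estimated, and the number of arrays limits the precision.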

Additional observations from a re-analysis of the deposited data

How the results depend on the processing

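The medians of the mitosis genes, their 8 functional groups, the further mitosis genes as 1 list and the S phase list kept their sign under all alternatives run, and the 5 further lists were not recomputed apart. The median of all measured genes, -0.0023, was 0.073 with median centring and 0.0051 with the software's ratio. The median of the mitosis genes (0.30) was 0.36 with an offset of 10, 0.39 with the array software's log ratio or the joined table and 0.39 with median centring, and 0.27 to 0.33 on single arrays. With the software's ratio or the joined table the group medians were 0.43 for mitotic entry, 0.44 for checkpoint and anaphase, 0.31 for centromere and kinetochore, 0.42 for kinesins and 0.37 for spindle assembly, and the further mitosis genes 0.11. With median centring they were 0.44 for mitotic entry, 0.52 for checkpoint and anaphase, 0.31 for centromere and kinetochore, 0.46 for spindle assembly and 0.25 for condensin and chromosome structure, with 0.13 for the further genes and -0.057 for the S phase list. No background correction gave 0.20 for centromere and kinetochore and 0.31 for spindle assembly, and an offset of 10 gave 0.27, 0.35 and, for the further genes, 0.081. The further genes were at 0.071 with background from negative control spots, which was added after seeing the data, at 0.080 with probes well above background in both populations and at 0.078 with the probe nearest 0. The S phase list was at -0.13 with the mean over probes or the probe nearest 0. On single arrays the medians ran from 0.31 to 0.35 for mitotic entry, 0.34 to 0.39 for checkpoint and anaphase, 0.20 to 0.21 for centromere and kinetochore, 0.20 to 0.38 for the chromosomal passenger complex, 0.26 to 0.38 for kinesins, 0.35 to 0.36 for spindle assembly, 0.055 to 0.20 for condensin and chromosome structure, 0.085 to 0.33 for cytokinesis, 0.051 to 0.058 for the further genes and -0.19 to -0.13 for the S phase list. Under median centring 9 genes were higher on both arrays in place of 44 and 8 were past 1.2-fold higher in place of 29, against 4.64% of all genes in place of 11.5%; there, without the correction by intensity, the arrays lay on opposite sides of 0 for 45 of the 54 genes and for 82.7% of all genes. Past 1.5-fold there were 2 genes and past 2-fold 0, and past 1.2-fold there were 28 on array 1 and 36 on array 2 alone, against 17.2% and 13.4% of all genes. CEP55 turned to -0.038 with the probe nearest 0. Of 756 values of single genes under the alternatives, 20, from 12 genes, had the other sign. No paired analysis was possible because the design holds 1 extract of each population.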

Other observations

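Within the S phase list, several genes of origin licensing and of the replication fork were lower in ALDH+ cells on both arrays. The helicase subunits MCM6 and MCM3 were at -0.53 and -0.51, the sliding clamp PCNA at -0.43 and cyclin E1 (CCNE1), which drives entry into S phase, at -0.40. MSH6, a mismatch repair gene of the same list, was the lowest at -0.71. Genes of the same list that were higher on both arrays included the licensing factor CDT1 at 0.21 and ORC1, a subunit of the origin recognition complex, at 0.21. No test was possible with 1 extract of each population.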
